A study of Mus musculus with 18 samples.

Results

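The genes described here encode matrix metalloproteinases (MMPs), ADAMTS proteinases, ADAMTS-like (ADAMTSL) proteins and tissue inhibitors of metalloproteinases (TIMPs). They were chosen by symbol alone, as every mouse symbol made of Mmp, Adamts or Adamtsl and a number, together with Timp1 to Timp4. That gave 51 genes of the 54567 symbols in the deposited tables, namely 23 MMP, 19 ADAMTS, 5 ADAMTSL and 4 TIMP genes. All 51 were in the table of days 8 and 16, and 44 were in the day 2 table.

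RNA was sequenced from mouse embryonic stem (ES) cells with a tdTomato reporter at Msx1, a homeobox gene of craniofacial mesenchyme, and from embryoid bodies (EBs), the aggregates in which such cells differentiate. The study asked what overexpression of the homeobox gene Dlx2 does to ES cells on their way to ectomesenchyme at day 2, and how Msx1-positive and Msx1-negative cells differ at days 8 and 16. The 7 groups, each of 2 libraries, were day 2 EBs of a line with inducible Dlx2, day 2 EBs of a line with inducible GFP, cells sorted by flow cytometry as Msx1-positive or Msx1-negative at day 8 and at day 16, and ES cells labelled wild type and untreated. Both kinds of EB were formed with 1 µg/ml doxycycline, and all sorted cells came from the inducible Dlx2 line under doxycycline. No GFP group of days 8 and 16 was analysed here, so the later comparisons are between fractions or times within the Dlx2 line. The labels do not say whether each line is a single clone, or whether the libraries of a group came from separate cultures. The p-values therefore measure only the spread between these libraries, which may be technical.

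MMPs are zinc endopeptidases that cleave collagens and other matrix proteins, and most are made as inactive proenzymes. Mmp14, a collagenase anchored in the membrane, activates pro-Mmp2 at the cell surface with Timp2 as the adaptor, while all TIMPs inhibit active MMPs. ADAMTS enzymes are secreted relatives that cut proteoglycans such as versican or trim procollagen, and ADAMTSL proteins share their other domains but lack the protease. In facial and dental mesenchyme this system remodels the matrix through which cells migrate and on which bone and dentin form.

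The day 2 libraries held 26211608 to 41552818 counts each, and those of the later stages and the ES cells 53797597 to 107770730. Dlx2, the induced gene, was at 0.0812 and 0.0808 CPM (its counts relative to the library's total) in the GFP EBs and at 4340 and 4720 CPM in the Dlx2 EBs. It was at 219 and 222 CPM in the libraries labelled ES cells, which goes against a label of untreated wild type cells. Every comparison with the libraries labelled ES cells below rests on that label. In sorted cells of day 8, Dlx2 was at 1140 and 1270 CPM in Msx1-positive and 269 and 272 CPM in Msx1-negative cells. At day 16 it was at 288 and 341 against 131 and 146 CPM. The fractions thus differed in the level of the induced gene as well, and its part in the results below was not tested. Msx1 was between 40.9 and 81.6 CPM in the 4 Msx1-positive libraries and between 0.752 and 1.9 CPM in the 4 Msx1-negative ones. The summed level of 8 craniofacial mesenchyme markers was 559 to 602 CPM in Msx1-positive and 42.2 to 43.1 CPM in Msx1-negative cells at day 8, and 1190 to 1200 against 187 to 202 CPM at day 16. Most of the sum in Msx1-negative cells of day 16 was Pdgfra, at 143 and 151 CPM there and 208 and 192 CPM in Msx1-positive cells. The sum of 6 ES cell markers, all of them at 1 CPM or more in every group, was 3090 to 3100 CPM in the libraries labelled ES cells. It was 757 to 771 CPM in Msx1-positive and 2370 to 2410 CPM in Msx1-negative cells at day 8, and 157 to 167 against 1800 to 1810 CPM at day 16. These marker sums move with many of the genes below, and their part in the results was not tested. In bulk samples, fewer cells of a type and less RNA per cell cannot be told apart.

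Levels are CPM after TMM scaling, and levels of different genes were set side by side only per kilobase (kb) of exon. Changes are log2 fold changes with their standard error (SE), and a gene was called higher or lower at an adjusted p below 0.05 in edgeR's quasi-likelihood test over all genes. An exact permutation test of a single gene cannot go below p = 0.333 (two-sided) with 2 libraries against 2, so each call leans on the spread estimated over all genes.

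Summed per kb, MMP transcripts were most abundant in Msx1-positive cells of day 16. The MMP sum was 383 and 381 CPM per kb there, against 58.6 and 62.2 in Msx1-negative cells of the same day, 114 and 119 in Msx1-positive and 41.8 and 42.1 in Msx1-negative cells of day 8, and 37.4 and 34.3 in the libraries labelled ES cells. The TIMP sum in the same order was 253 and 266, 33.9 and 33.6, 66.4 and 64, 15 and 14.8, and 23.2 and 20.8 CPM per kb. The ADAMTS sum was 132 and 120 CPM per kb in Msx1-positive cells of day 16, and Msx1-negative cells held 42.3 and 43.4. In none of these 3 families did the libraries of the Msx1-positive and Msx1-negative fractions overlap at either day. At day 2 the MMP sum was 32.3 and 33.8 CPM per kb in GFP EBs and 22.8 and 23.4 in Dlx2 EBs, whereas the ADAMTS sum was 11.4 and 11.9 against 17 and 16.9.

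**Figure D1:**
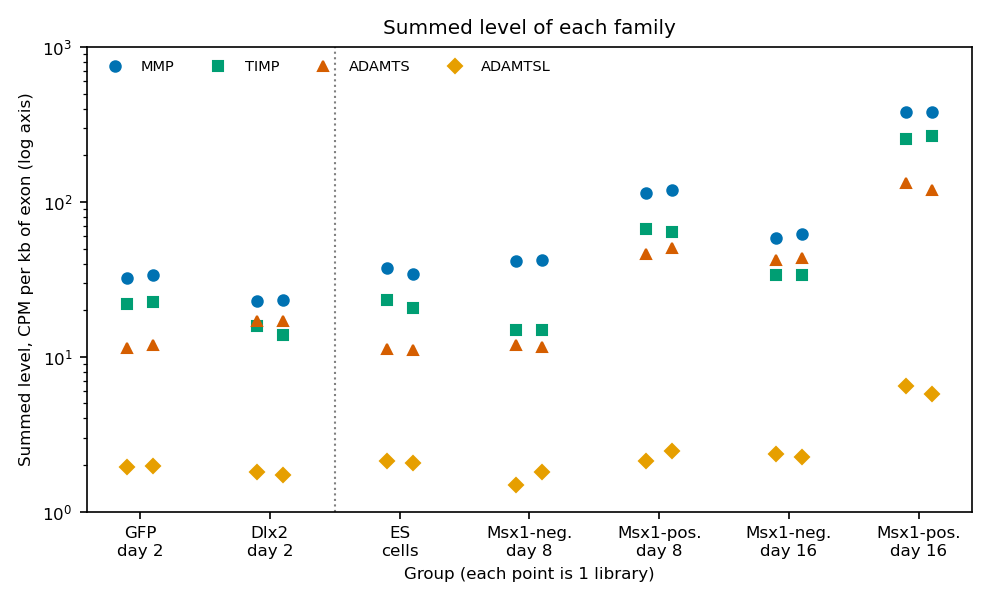
Summed level of the MMP, TIMP, ADAMTS and ADAMTSL genes in CPM per kb of exon, on a log axis, a point for each library, over the 7 groups. The 2 libraries of Msx1-positive cells of day 16 lie above all other libraries for MMP (381 and 383) and TIMP (253 and 266) (the dotted line parts the day 2 table, which was scaled on its own).

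The makeup of each family differed between groups too. Mmp2 and Mmp14 together made up 30% and 28.7% of the MMP sum in the libraries labelled ES cells and 79.9% and 80.4% in Msx1-positive cells of day 16. Timp1 made up 91.2% and 89.2% of the TIMP sum in the libraries labelled ES cells but 32.6% and 34.3% in Msx1-positive cells of day 16, where Timp2 held 58.6% and 57.3%. A single gene, Adamts9, held 60.6% and 60.9% of the ADAMTS sum in Msx1-negative cells of day 16 and 9.82% and 9.94% in Msx1-positive cells. Per kb, the gene with the highest level was Timp1 in both day 2 groups and in the libraries labelled ES cells, Mmp11 in Msx1-negative cells of day 8 (14.2 CPM per kb), Adamts9 in Msx1-negative cells of day 16 (26) and Mmp2 in Msx1-positive cells of days 8 and 16 (52 and 232). The ratio of the TIMP sum to the MMP sum was 0.36 and 0.352 in Msx1-negative cells of day 8 and between 0.539 and 0.697 in all other libraries.

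Of the 51 genes, 44 passed the filter on low counts in the sorted libraries. Of those, 34 had their highest mean in Msx1-positive cells of day 16, beside 33.1% of all genes tested. For 31 of the 44, both libraries of that group lay above the other 8 libraries of the table, beside 24.3% of all 22294 genes tested. The highest mean lay in Msx1-negative cells of day 16 for Adamts9, Adamtsl4, Mmp12, Mmp15 and Mmp17, in Msx1-positive cells of day 8 for Mmp28 and Timp4, in Msx1-negative cells of day 8 for Mmp21 and Mmp25, and in the libraries labelled ES cells for Mmp24. The 7 genes that did not pass were Adamts13, Mmp1a, Mmp1b, Mmp7, Mmp8, Mmp20 and Mmp27.

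**Figure D2:**
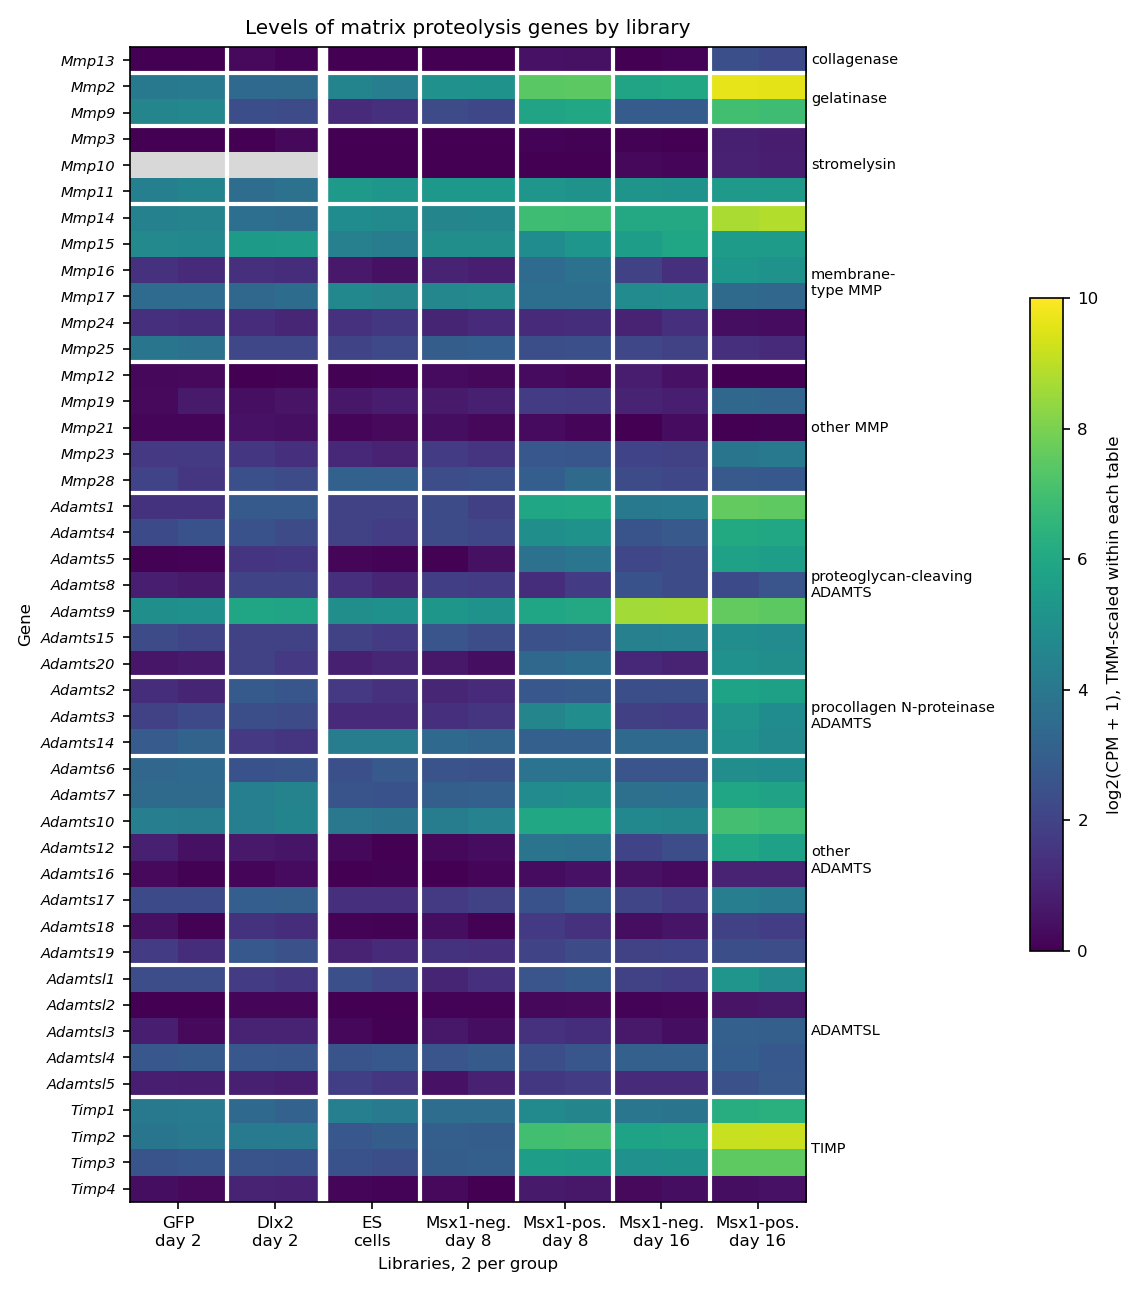
Heat map of the level of each gene in each library, as log2 of CPM plus 1 with TMM scaling within each table, genes grouped by role and libraries by group (grey: gene not in the day 2 table). Mmp2, Timp2 and Mmp14 are brightest in the 2 libraries of Msx1-positive cells of day 16, and Adamts9 in Msx1-negative cells of day 16.

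At day 2, Dlx2 EBs had less of both gelatinases and of the membrane-type enzyme Mmp25 than GFP EBs, and more of most proteoglycan-cleaving ADAMTS genes. Mmp9 fell by 2.47 ± 0.12 (SE) on the log2 scale and Mmp25 fell by 1.97 ± 0.14, while Adamts1 rose by 1.81 ± 0.19 and Adamts2 by 2.19 ± 0.22. Of 37 genes tested, 13 rose and 9 fell, while 7 others were not in the day 2 table and 7 had too few counts there. Over all 18650 genes tested 34.1% rose and 33% fell, so neither share of these genes (35.1% and 24.3%) lay far above the background. The median log2 change was 0.03, beside 0.02 over all genes. By role, 5 of 7 proteoglycan-cleaving ADAMTS genes rose and none fell, 4 of 7 other ADAMTS genes rose and 1 fell, and both gelatinases fell. Of the 6 membrane-type MMPs 1 rose and 2 fell, and of the 4 TIMPs 1 rose and 1 fell. With scaling by library size alone, the split of all genes became 8003 higher and 4576 lower in place of 6367 and 6157.

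**Figure D3:**
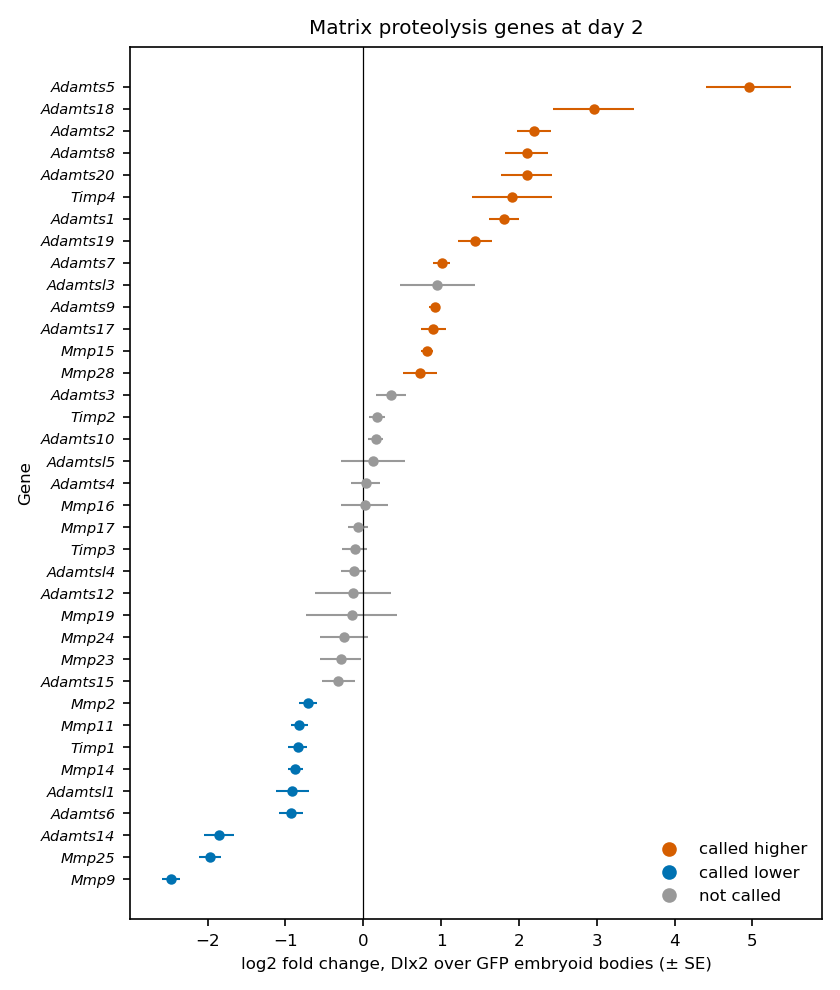
Log2 change of each tested gene between Dlx2 and GFP EBs of day 2, with its SE and in order of the change, where orange points were called higher, blue ones lower and grey ones neither. Adamts5 lies farthest to the right, a fitted value that depends on the prior count because the GFP EBs held 3 counts, and Mmp9 (-2.47), Mmp25 (-1.97) and Adamts14 (-1.85) lie farthest to the left.

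In the sorted cells, Msx1-positive cells held more of the gelatinases, of Mmp14, of Timp1, Timp2 and Timp3 and of most ADAMTS genes than Msx1-negative cells at both days. At day 8, Timp2 was higher by 4.18 ± 0.070 on the log2 scale, Mmp9 by 4.0 ± 0.086 and Mmp2 by 2.42 ± 0.066. Of 44 genes tested at day 8, 31 were higher in Msx1-positive cells and 4 lower, beside 30.4% and 24.3% of all genes. At day 16, 34 were higher and 5 lower, beside 31.1% and 31%. The median log2 difference was 1.72 at day 8 and 2.48 at day 16, beside 0.06 and -0.02 over all genes. The 4 lower genes of day 8 were Adamts14, Mmp11, Mmp17 and Mmp25, and the 5 of day 16 were Adamts9, Mmp12, Mmp17, Mmp24 and Mmp25.

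Counted by role, all 8 tested members of the other ADAMTS group were higher in Msx1-positive cells at both days, though the calls of Adamts16 (both days) and Adamts19 (day 16) did not hold with every library left out. Of the 7 proteoglycan-cleaving ADAMTS genes, Adamts1, Adamts4, Adamts5 and Adamts20 were higher at both days, Adamts9 at day 8 alone and Adamts15 at day 16 alone. All 4 TIMPs were higher at day 8 and 3 of 4 at day 16. The membrane-type MMPs were split, with 2 of 6 higher and 2 lower at day 8 and 2 higher and 3 lower at day 16. Leaving out the first Msx1-negative library of day 8 left 2 lower genes at that day. Scaling by library size alone also left 2, without Adamts14 (log2 -0.15, edgeR adjusted p = 0.31) and Mmp11 (-0.02, adjusted p = 0.803), and turned the split of all genes at day 8 from 6772 higher and 5415 lower into 8071 and 4016.

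The difference between the fractions was itself different at day 16 and day 8 for 21 of the 44 genes. It moved toward Msx1-positive cells from day 8 to day 16 for 13 and toward Msx1-negative cells for 8, beside 10.3% and 18.3% of all genes. The median was 0.24, beside -0.1 over all genes. Adamtsl3 (2.16 ± 0.48), Adamts14 (1.91 ± 0.16) and Mmp19 (1.61 ± 0.31) had the largest moves up. Mmp12, with no count in Msx1-positive cells of day 16, Adamts5 (-2.39 ± 0.52), Mmp24 (-2.39 ± 0.48), Adamts12 (-1.97 ± 0.34) and Adamts9 (-1.84 ± 0.098) had the largest moves down. With library size alone, 12 of these genes moved toward Msx1-positive and 11 toward Msx1-negative cells, in place of 13 and 8. The split over all genes was then 1088 higher and 5912 lower in place of 2294 and 4090.

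**Figure D4:**
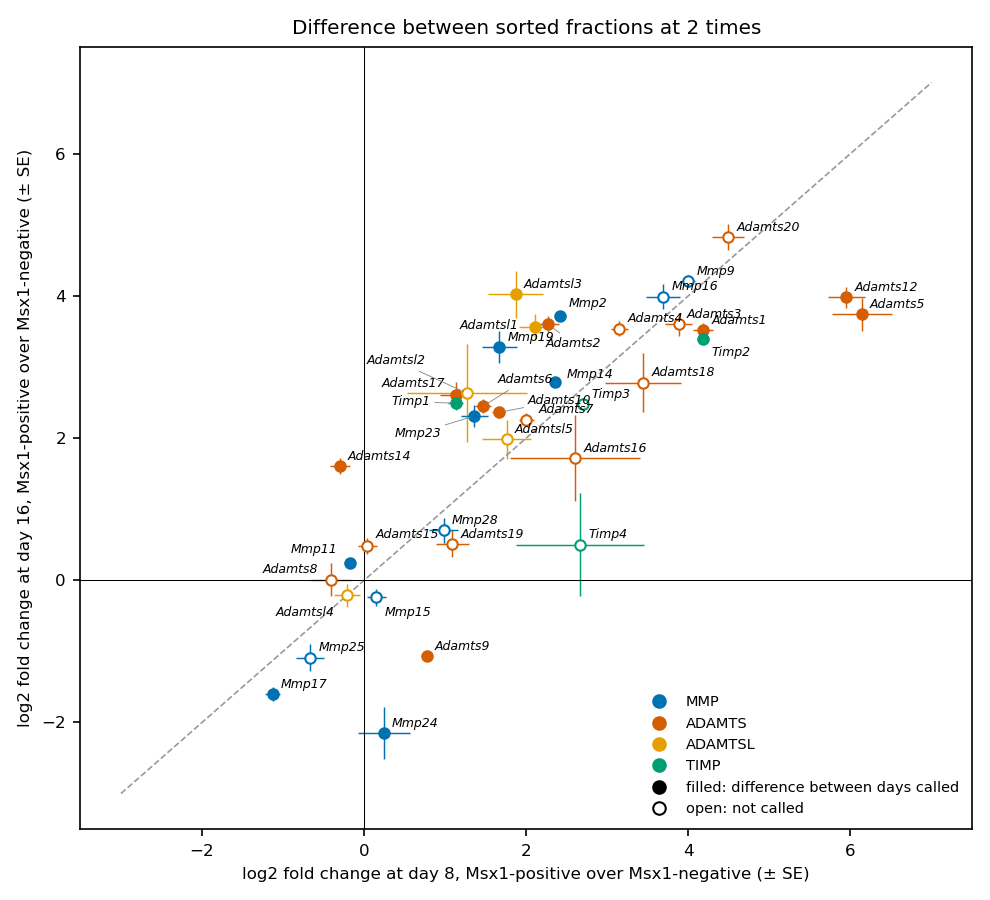
Log2 difference between Msx1-positive and Msx1-negative cells at day 8 (x axis) and at day 16 (y axis) for 39 genes, with SEs and the dashed line of equal values, where filled points passed the test between the days and 5 genes with very few counts (Mmp3, Mmp10, Mmp12, Mmp13 and Mmp21) are left out. Most genes lie in the upper right, and Adamts9 is higher in Msx1-positive cells at day 8 (0.77) and lower in them at day 16 (-1.07).

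From day 8 to day 16, far more of these genes rose than fell in each fraction, and the gelatinases, Timp2, Timp3 and Mmp14 rose in both. In Msx1-positive cells 33 of 44 rose and 5 fell, beside 21.1% and 24.8% of all genes, with a median of 1.59 beside -0.03. In Msx1-negative cells 26 rose and 2 fell, beside 19.7% and 17.8%, with a median of 0.83 beside 0.01. All 7 proteoglycan-cleaving ADAMTS genes rose in each fraction, although the call of Adamts8 in Msx1-negative cells did not hold with every library left out. Nor did the rises of Adamts3, Adamts10, Adamts16, Adamtsl5, Mmp23 and Timp1 in Msx1-negative cells, or those of Adamts16, Adamtsl2, Mmp11 and Mmp15 in Msx1-positive cells. The 5 that fell in Msx1-positive cells were Mmp12, Mmp17, Mmp24, Mmp25 and Mmp28, and the 2 in Msx1-negative cells were Mmp11 and Mmp25. Leaving out the second Msx1-positive library of either day left 3 lower genes in Msx1-positive cells, and leaving out any of the 4 Msx1-negative libraries left 1 in Msx1-negative cells. The comparisons over time share their libraries with those between fractions. With library size alone the split over all genes was 3717 higher and 6999 lower in place of 4713 and 5526 in Msx1-positive cells, and 5061 and 2984 in place of 4399 and 3974 in Msx1-negative cells.

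Against the libraries labelled ES cells, whose Dlx2 level goes against their label, Msx1-positive cells of day 16 were higher for 35 genes and lower for 4, beside 37.3% and 33.7% of all 22504 genes in that fit. Msx1-positive cells of day 8 were higher for 32 and lower for 2, beside 34.6% and 26.9%. The Msx1-negative cells were higher for 15 and lower for 8 at day 8, beside 19% and 14.5%, and higher for 29 and lower for 6 at day 16, beside 28.5% and 24.5%. The medians were 3.63 and 1.98 in Msx1-positive cells of days 16 and 8 and 1.32 and 0.39 in Msx1-negative cells, beside 0.07, 0.11, 0.06 and 0.03 over all genes. These 4 comparisons share the same 2 libraries labelled ES cells. Without the first of these libraries, 2 genes were lower in Msx1-negative cells of day 16 in place of 6, and without either of those Msx1-negative libraries 3 were.

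The gelatinases degrade denatured collagen and basement membrane collagen. Mmp2 (chromosome 8, 92827291 to 92853420, GRCm38) was at 788 and 774 CPM in Msx1-positive and 55.6 and 62.6 CPM in Msx1-negative cells of day 16, 173 and 178 against 32.4 and 32.9 CPM at day 8, and 21.9 and 18.6 CPM in the libraries labelled ES cells. In the day 2 table it was at 15.6 and 16.7 CPM in GFP EBs and 9.77 and 10 CPM in Dlx2 EBs. The fractions and the EBs did not overlap. Msx1-positive cells were higher by 3.72 ± 0.068 at day 16 (edgeR adjusted p = 6.44e-15), which exceeded the difference of day 8 by 1.30 ± 0.088, and Dlx2 EBs were lower (-0.71 ± 0.11, adjusted p = 6.62e-06).

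Mmp9 (chromosome 2, 164940780 to 164955850) was at 124 and 118 CPM in Msx1-positive and 6.46 and 6.56 CPM in Msx1-negative cells of day 16, and at 56.6 and 62 against 3.87 and 3.53 CPM at day 8. The libraries labelled ES cells had 1.29 and 1.65 CPM, GFP EBs 22.2 and 23.9 CPM and Dlx2 EBs 4.29 and 4.02 CPM. Mmp9 had the largest fall of any of the 37 genes at day 2 (-2.47 ± 0.12, adjusted p = 2.86e-14) and was higher in Msx1-positive cells by 4.0 ± 0.086 at day 8 and 4.21 ± 0.082 at day 16. The difference of 0.21 ± 0.12 between those values did not pass the test (adjusted p = 0.201). Macrophages and osteoclasts are known sources of Mmp9. The summed level of 6 macrophage markers was 8.31 to 9.28 CPM in Msx1-positive cells of day 16, with Adgre1 and Tyrobp at 0 counts, and 21 CPM in Msx1-negative cells. At day 2, where the table holds 3 of the 6, their sum was 18.1 to 18.5 CPM in GFP EBs and 10.2 to 10.6 CPM in Dlx2 EBs. Nearly all of it was Cd68 (17.7 and 18 against 9.66 and 9.55 CPM). Csf1r went the other way (0.0812 and 0.162 against 0.658 and 0.521 CPM), and Itgam was at 0.325 and 0.283 against 0.272 and 0.174 CPM. For 4 osteoclast markers the sum was 4.32 to 4.81 CPM in Msx1-positive and 12.8 CPM in Msx1-negative cells of day 16, most of it Acp5 (2.9 and 2.31 against 12.4 and 12.3 CPM), while Ctsk was at 1.81 and 1.4 against 0.344 and 0.262 CPM. The part of these cells in the level of Mmp9 was not tested.

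**Figure D5:**
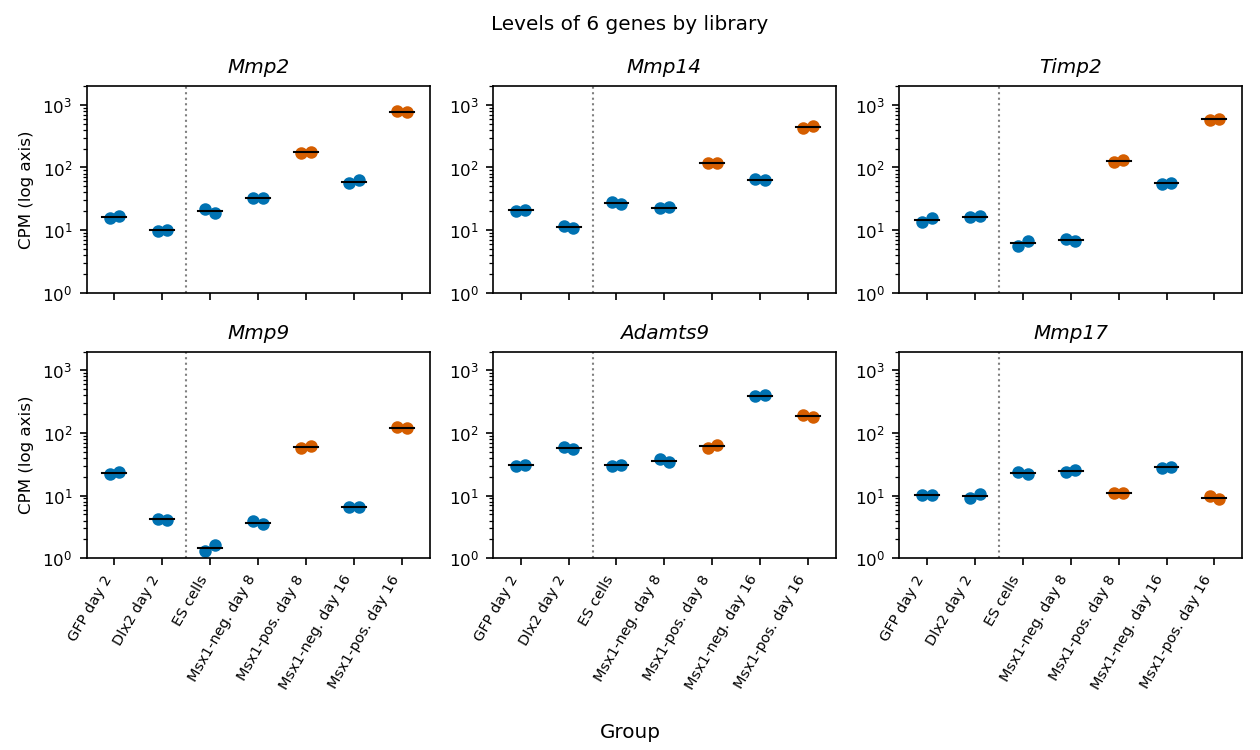
Level in CPM (log axis) of Mmp2, Mmp14, Timp2, Mmp9, Adamts9 and Mmp17, a point for each library and a bar for the group mean, with Msx1-positive groups in orange. Mmp2 and Mmp9 are lower in Dlx2 than in GFP EBs and higher in Msx1-positive than in Msx1-negative cells at both days, whereas Adamts9 is highest in Msx1-negative cells of day 16.

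Among the membrane-type MMPs, Mmp14 (chromosome 14, 54431612 to 54445364) was highest in Msx1-positive cells of day 16, as Mmp2 was. It was at 429 and 458 CPM in Msx1-positive and 64.7 and 63.7 CPM in Msx1-negative cells of day 16, at 117 and 116 against 22.5 and 23.1 CPM at day 8, and at 28.3 and 25.7 CPM in the libraries labelled ES cells. GFP EBs had 19.9 and 21.2 CPM and Dlx2 EBs 11.6 and 10.9 CPM. Msx1-positive cells were higher by 2.35 ± 0.060 at day 8 and 2.79 ± 0.059 at day 16, and Dlx2 EBs were lower (-0.87 ± 0.10, adjusted p = 8.63e-08). Mmp16, a related transmembrane enzyme, was at 37.1 and 34 CPM in Msx1-positive and 2.8 and 1.65 CPM in Msx1-negative cells of day 16 and at 10.4 and 12.1 against 0.924 and 0.813 CPM at day 8. The libraries labelled ES cells had 0.598 and 0.353 CPM. In EBs it was between 1.37 and 1.66 CPM in all 4 libraries, with a log2 difference of 0.02 (adjusted p = 0.948).

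The enzymes held by a glycolipid anchor, Mmp17 and Mmp25, ran the other way between fractions. Mmp17 was at 9.84 and 8.79 CPM in Msx1-positive and 27.5 and 28.9 CPM in Msx1-negative cells of day 16, at 11.1 and 11.2 against 23.5 and 25.3 CPM at day 8, and at 24.2 and 22.2 CPM in the libraries labelled ES cells. It was lower in Msx1-positive cells by -1.13 ± 0.092 at day 8 and -1.60 ± 0.094 at day 16. In EBs it lay between 9.07 and 10.6 CPM and did not pass the test. Mmp25 was at 13.8 and 12.4 CPM in GFP EBs and 3.33 and 3.36 CPM in Dlx2 EBs (-1.97 ± 0.14, adjusted p = 4.2e-11). In sorted cells Mmp25 was at 4.24 and 4.43 CPM in Msx1-positive and 6.79 and 7.02 CPM in Msx1-negative cells at day 8, at 1.64 and 1.34 against 3.37 and 2.96 CPM at day 16, and at 3.11 and 3.63 CPM in the libraries labelled ES cells. It was lower in Msx1-positive cells at both days (-0.67 ± 0.17 and -1.09 ± 0.19) and fell from day 8 to day 16 in both fractions.

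Mmp15 moved with the EB groups and over time more than with the fractions. It was at 25.4 and 24.5 CPM in GFP EBs and 42.9 and 45.1 CPM in Dlx2 EBs (0.82 ± 0.078, adjusted p = 3.91e-09). Msx1-positive cells had 28.3 and 37.1 CPM at day 8 and 45.3 and 44.6 CPM at day 16, Msx1-negative cells 29.7 and 29.5 then 47.1 and 58.8 CPM, and the libraries labelled ES cells 19.7 and 18 CPM. The fractions overlapped at day 8 and did not pass the test at either day. The rise over time in Msx1-positive cells (0.45 ± 0.12, adjusted p = 0.00991) was lost without the first Msx1-positive library of day 8 (0.27, adjusted p = 0.051) or without either Msx1-positive library of day 16 (0.44, adjusted p = 0.0728, and 0.46, adjusted p = 0.0647). Mmp24, an enzyme known mainly from the nervous system, was at 1.88 ± 0.255 CPM (SD, n = 2) in the libraries labelled ES cells and at 0.286 ± 0.0303 CPM in Msx1-positive cells of day 16, where it was lower than in Msx1-negative cells by -2.15 ± 0.37. An exon of Mmp24 overlaps another gene, and the counts do not separate strands.

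The secreted collagenases and stromelysins were rare, and 10 MMP genes lie in a row on chromosome 9 between 7272514 and 7699585: Mmp13, Mmp12, Mmp1b, Mmp3, Mmp1a, Mmp10, Mmp8, Mmp27, Mmp20 and Mmp7. Of these, 3 (Mmp7, Mmp8 and Mmp27) had no count in any of the 10 libraries, which allows up to 3 counts in each. Mmp13, a collagenase of bone and cartilage that is active on fibrillar collagen, was at 4.41 and 3.59 CPM in Msx1-positive and 0 and 0.0654 CPM in Msx1-negative cells of day 16. At day 8 it was at 0.391 and 0.349 CPM in Msx1-positive cells and had no count in Msx1-negative cells, so it was at least 14.1-fold higher there. At day 16 the log2 difference was 6.85 ± 0.58 (adjusted p = 1.65e-07) with 4 counts in Msx1-negative cells. The libraries labelled ES cells had no count of Mmp13, and Msx1-positive cells of day 16 were at least 137-fold above them.

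The stromelysins Mmp3 and Mmp10, which cleave many matrix proteins and other MMP proenzymes, are near copies of each other, and reads could be split between them. They are named here, with Mmp12, after their values were seen. Mmp3 was at 0.843 and 0.717 CPM in Msx1-positive cells of day 16 and 0.0327 and 0 CPM in Msx1-negative cells, a ratio of 47.6 (95% exact counting interval 12.8 to 399). Mmp10 was at 0.907 and 0.795 against 0.164 and 0.0981 CPM (2.68 ± 0.69, adjusted p = 0.00436) and had no count in the 4 libraries of day 8 or the 2 labelled ES cells. Its rise over time in Msx1-positive cells was at least 52.8-fold. Mmp12, known from macrophages, ran the other way, with 0 counts in both Msx1-positive libraries of day 16 and 0.72 and 0.409 CPM in Msx1-negative cells, at least 23.7-fold lower. An exon of Mmp12 overlaps Mmp1b. The sum of 6 macrophage markers was 8.31 to 9.28 CPM in the group without a count of Mmp12 and 21 CPM in the other. Most of that sum was Cd68 (7 and 8.36 against 17.2 and 17 CPM). The part of macrophages in the level of Mmp12 was not tested. Mmp1a, Mmp1b and Mmp20, whose product matures enamel, were between 0 and 0.111 CPM in all 10 libraries, and Mmp1a and Mmp1b are near copies too.

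The promoters of the 3 row members that were higher in Msx1-positive cells of day 16 are shown beside that of Mmp14, a more abundant MMP on chromosome 14, because they were all near 0 in most groups and share 2 short motifs. Each line holds the 100 bases before the RefSeq start on the plus strand of GRCm38.p6: chr9:7272414-7272513 for Mmp13, chr9:7502242-7502341 for Mmp10, chr9:7445722-7445821 for Mmp3 and chr14:54431498-54431597 for Mmp14. Capitals mark matches to the AP-1 motif, written TGANTCA, which is bound by Fos and Jun factors and is known from many inducible MMP promoters. They also mark the TATA box, written TATAAA, where transcription complexes assemble. In Mmp14 they mark adjoining GC boxes, each written GGGCGG.
Mmp13: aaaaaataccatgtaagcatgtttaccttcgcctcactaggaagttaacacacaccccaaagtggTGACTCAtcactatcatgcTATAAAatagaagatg
Mmp10: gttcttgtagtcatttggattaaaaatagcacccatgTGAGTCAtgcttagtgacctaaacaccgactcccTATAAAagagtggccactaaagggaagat
Mmp3: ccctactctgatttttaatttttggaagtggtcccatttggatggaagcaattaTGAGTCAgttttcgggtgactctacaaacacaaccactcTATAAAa
Mmp14: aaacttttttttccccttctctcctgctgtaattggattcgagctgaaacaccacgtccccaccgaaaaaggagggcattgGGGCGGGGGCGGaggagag

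The AP-1 motif began 35 bases before the start in Mmp13, 46 in Mmp3 and 63 in Mmp10. The TATA box began 16, 7 and 29 bases before it. The RefSeq table held 39 promoters of these genes, each a window from 250 bases before to 50 after a start. The AP-1 motif was on either strand of 8 of them (20.5%), as in 7.81% of all 32851 promoters. All 8 belong to the row on chromosome 9, and none of the promoters listed for genes outside that row held the motif. A TATA box was in 12 (30.8%, beside 13.6%), a GC box in 22 (56.4%, beside 35.7%) and the homeodomain core TAATTA in 4 (10.3%, beside 5.29%). Within the row on chromosome 9, Mmp12, Mmp1b, Mmp1a, Mmp20 and Mmp7 held both an AP-1 motif and a TATA box as well, although their levels were low in every group. A match describes letters in a window and is no measurement of binding. The table holds no entry for Mmp2, Mmp9, Mmp16, Mmp17, Mmp19, Adamts4, Adamts5, Adamts6, Adamts7, Adamts8, Adamts10, Adamts15, Adamts16, Adamts19 or Adamtsl1. The promoters of those genes were not searched.

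Mmp11, a stromelysin-like enzyme that is activated inside the cell by furin, was among the most even of the abundant genes. It was at 40.5 and 40.5 CPM in Msx1-positive and 34.8 and 33.7 CPM in Msx1-negative cells of day 16, at 36.2 and 33.6 against 39.6 and 39.4 CPM at day 8, and at 41 and 37.5 CPM in the libraries labelled ES cells. At day 2 it was at 19 and 21.9 CPM in GFP and 11 and 12.2 CPM in Dlx2 EBs (-0.82 ± 0.11, adjusted p = 4.57e-07). Its small differences between fractions (-0.18 at day 8 and 0.24 at day 16) passed the test, but neither call held in every alternative. The day 8 call was lost without either Msx1-negative library (-0.21 each) or the second Msx1-positive library (-0.13) of that day. It was also lost with no filter on low counts (-0.16, edgeR adjusted p = 0.121) and with library size alone (-0.02, adjusted p = 0.803). Without the second Msx1-negative library of day 16, both calls were lost (-0.18 at day 8 and 0.22 at day 16). An exon of Mmp11 overlaps Chchd10.

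The remaining MMPs were of low abundance. Mmp23 was at 13.9 and 15.7 CPM in Msx1-positive and 3.04 and 2.9 CPM in Msx1-negative cells of day 16, at 5.61 and 5.36 against 2.45 and 1.81 CPM at day 8, and at 1.23 and 0.961 CPM in the libraries labelled ES cells. It was higher in Msx1-positive cells at both days (1.36 ± 0.17 and 2.31 ± 0.16), and in EBs it was between 1.59 and 2.22 CPM with no call. Mmp19 was at 8.85 ± 0.241 CPM in Msx1-positive cells of day 16 against 0.908 ± 0.15 CPM in Msx1-negative cells (3.28 ± 0.22), and at 2.38 ± 0.131 against 0.748 ± 0.118 CPM at day 8 (1.67 ± 0.22). Mmp28, known from epithelia, was at 8.42 ± 2.01 CPM in Msx1-positive and 4.29 ± 0.263 CPM in Msx1-negative cells of day 8 (0.98 ± 0.18). Its rise in Dlx2 EBs (0.73 ± 0.22, adjusted p = 0.00505) was lost without the first Dlx2 library (0.63, adjusted p = 0.0797) or the second GFP library (0.46, adjusted p = 0.0648). Mmp21 stayed between 0 and 0.408 CPM over all libraries and was not called in any comparison.

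The proteoglycan-cleaving ADAMTS genes, whose products cut versican and aggrecan, held, at day 16, both the widest excess in Msx1-positive cells among the ADAMTS genes (Adamts20) and the only deficit that passed the test (Adamts9). Adamts1 (chromosome 16, 85793827 to 85803113) was at 194 and 183 CPM in Msx1-positive and 15.7 and 17.1 CPM in Msx1-negative cells of day 16, at 57.5 and 63 against 3.89 and 2.7 CPM at day 8, and at 2.93 and 2.94 CPM in the libraries labelled ES cells. It was at 1.75 and 1.78 CPM in GFP EBs and 6.21 and 6.13 CPM in Dlx2 EBs (1.81 ± 0.19, adjusted p = 2.78e-08). The fractions differed by 4.18 ± 0.12 at day 8 and 3.52 ± 0.10 at day 16, a drop of 0.66 that was lost without the second Msx1-negative library of day 8 (-0.42, adjusted p = 0.0523).

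Adamts5, the neighbour of Adamts1 on chromosome 16 (85856173 to 85901828) and a main aggrecanase, had 3 counts in the GFP EBs together. It was at 0.0406 and 0.0808 CPM there and 1.95 and 2.05 CPM in Dlx2 EBs, a ratio of 32.9 (95% exact counting interval 11 to 161). In sorted cells it was at 51.1 and 48.3 CPM in Msx1-positive and 3.39 and 4.01 CPM in Msx1-negative cells of day 16, at 12.7 and 14.4 against 0.0324 and 0.37 CPM at day 8, and at 0.116 and 0.0784 CPM in the libraries labelled ES cells. Msx1-positive cells were higher by 6.14 ± 0.37 at day 8 and 3.74 ± 0.23 at day 16. The change between those differences (-2.39 ± 0.52, edgeR adjusted p = 0.00864) did not pass in DESeq2 (-2.29, adjusted p = 0.146).

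Adamts4, Adamts15 and Adamts20 complete the clear rises over time. Adamts4 was at 66.6 and 62.8 CPM in Msx1-positive and 5.09 and 5.99 CPM in Msx1-negative cells of day 16, at 30.7 and 33.9 against 3.89 and 3.36 CPM at day 8, at 2.84 and 2.55 CPM in the libraries labelled ES cells and between 3.77 and 4.81 CPM in EBs. Adamts20, which acts on versican in pigment cell and palate development, was at 32.4 and 29.4 against 1.2 and 0.981 CPM at day 16, at 9.33 and 10.5 against 0.567 and 0.296 CPM at day 8, at 0.849 and 1.12 CPM in the libraries labelled ES cells, and at 0.528 and 0.646 CPM in GFP and 2.83 and 2.2 CPM in Dlx2 EBs. Both were higher in Msx1-positive cells at each day, Adamts4 by 3.15 ± 0.11 then 3.54 ± 0.10 and Adamts20 by 4.49 ± 0.20 then 4.83 ± 0.18. Adamts15 was at 29 and 27.2 CPM in Msx1-positive and 19.3 and 20.9 CPM in Msx1-negative cells of day 16, but at 4.58 and 4.91 against 5.14 and 4.08 CPM at day 8, where the fractions overlapped. It was at 2.91 and 2.35 CPM in the libraries labelled ES cells and between 2.78 and 3.9 CPM in EBs. Adamts15 rose from day 8 to day 16 in both fractions (2.56 ± 0.12 and 2.12 ± 0.12), as did Adamts8, which reached 4.43 ± 1.01 CPM in Msx1-positive and 4.38 ± 0.428 CPM in Msx1-negative cells and did not pass the test between them. Its rise in Msx1-negative cells (0.79 ± 0.24, edgeR adjusted p = 0.019) was lost without either Msx1-negative library of day 8 (adjusted p = 0.0667 and 0.0947) or the first of day 16 (adjusted p = 0.108).

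Adamts9 (chromosome 6, 92772699 to 92943492), a conserved versican-cleaving enzyme, turned its direction between the days. At day 8 it was at 58.5 and 65.2 CPM in Msx1-positive and 37.9 and 34.6 CPM in Msx1-negative cells, and at day 16 at 194 and 180 against 386 and 398 CPM. The libraries labelled ES cells had 29.8 and 31 CPM, GFP EBs 30.2 and 31.1 CPM and Dlx2 EBs 59.5 and 56.2 CPM. Neither the EB groups nor the fractions of a day overlapped. Msx1-positive cells were higher by 0.77 ± 0.071 at day 8 (adjusted p = 2.73e-07) and lower at day 16 (-1.07 ± 0.068, adjusted p = 3.36e-09), and Dlx2 EBs were higher by 0.92 ± 0.072. From day 8 to day 16 it rose by 3.43 ± 0.075 in Msx1-negative and 1.59 ± 0.069 in Msx1-positive cells. The sum of 8 extraembryonic endoderm markers, all at 1 CPM or more in both fractions of day 16, was 593 to 600 CPM in Msx1-negative and 207 to 216 CPM in Msx1-positive cells of that day, and 76.7 to 80 CPM in both at day 8. The sum of 5 endothelial markers was 219 to 240 against 54 to 58.1 CPM at day 16, with Pecam1 at 133 and 138 against 10.1 and 9.2 CPM but Kdr at 3.76 and 5.19 against 26.2 and 24.2 CPM and Emcn at 0.622 and 0.687 against 3.74 and 2.9 CPM. Pecam1 was at 104 and 101 CPM in the libraries labelled ES cells. Their part in the level of Adamts9 was not tested. Exons of Adamts9 overlap A730049H05Rik and Gm15737.

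The procollagen N-proteinases Adamts2, Adamts3 and Adamts14 remove the amino end of fibrillar procollagens. Adamts2 was at 54.4 and 49.8 CPM in Msx1-positive and 4.24 and 4.3 CPM in Msx1-negative cells of day 16, at 5.64 and 6.11 against 1.13 and 1.31 CPM at day 8, at 2.2 and 1.71 CPM in the libraries labelled ES cells, and at 1.46 and 1.05 CPM in GFP and 6.17 and 5.32 CPM in Dlx2 EBs. It was higher in Msx1-positive cells by 2.27 ± 0.13 then 3.60 ± 0.11, and rose in Dlx2 EBs by 2.19 ± 0.22. Adamts3 was at 22.5 and 28.6 CPM in Msx1-positive and 1.59 and 1.88 CPM in Msx1-negative cells of day 8, at 35.9 and 28.2 against 2.7 and 2.57 CPM at day 16, at 1.35 and 1.37 CPM in the libraries labelled ES cells, and between 2.84 and 4.31 CPM in EBs with no call. Its Msx1-positive libraries of the 2 days overlapped, so the difference over time there was not called (0.32 ± 0.13, adjusted p = 0.0571).

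Adamts14 changed differently from the other two of its group. It was at 18.1 and 18.1 CPM in the libraries labelled ES cells, at 7.46 and 7.38 CPM in Msx1-positive and 9.74 and 8.52 CPM in Msx1-negative cells of day 8, and at 32 and 26.8 against 9.55 and 9.65 CPM at day 16. GFP EBs had 6.37 and 8 CPM and Dlx2 EBs 2.13 and 1.82 CPM. It was lower in Dlx2 EBs (-1.85 ± 0.19, adjusted p = 1.62e-08) and higher in Msx1-positive cells of day 16 by 1.61 ± 0.11. The slight deficit at day 8 (-0.30 ± 0.12, adjusted p = 0.0376) was lost without either Msx1-positive library of that day (adjusted p = 0.0846 and 0.112), without the first Msx1-negative one (adjusted p = 0.197) and with scaling by library size.

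Of the other ADAMTS genes, Adamts12 and Adamts7, which cleave the cartilage oligomeric matrix protein, were both strongly Msx1-positive. Adamts12 was at 62.8 and 51.3 CPM in Msx1-positive and 3.03 and 4.19 CPM in Msx1-negative cells of day 16, at 13.5 and 12.4 against 0.162 and 0.259 CPM at day 8, at 0.154 and 0 CPM in the libraries labelled ES cells and between 0.364 and 0.852 CPM in EBs. The differences were 5.95 ± 0.23 at day 8 and 3.98 ± 0.15 at day 16. Adamts7 was at 59.6 and 53 against 11.8 and 11.6 CPM at day 16, at 27.5 and 30.4 against 7.13 and 7.39 CPM at day 8, at 5.09 and 4.74 CPM in the libraries labelled ES cells, and at 9.9 and 9.9 CPM in GFP and 18.9 and 21.1 CPM in Dlx2 EBs. It was higher in Msx1-positive cells by 2.00 ± 0.092 then 2.26 ± 0.089 and in Dlx2 EBs by 1.01 ± 0.11. An exon of Adamts7 overlaps Tbc1d2b.

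Adamts6, Adamts10 and Adamts17 are tied to fibrillin microfibrils. Adamts10 was at 129 and 117 CPM in Msx1-positive and 24.7 and 23 CPM in Msx1-negative cells of day 16, at 60.9 and 61.7 against 17.9 and 20.8 CPM at day 8, at 15.2 and 13.4 CPM in the libraries labelled ES cells, and between 17.7 and 21.6 CPM in EBs with no call. It was higher in Msx1-positive cells by 1.66 ± 0.082 at day 8 and 2.36 ± 0.082 at day 16. Adamts6 was at 28.9 and 27.8 against 5.15 and 5.17 CPM at day 16 and 13.2 and 13.1 against 4.91 and 4.58 CPM at day 8, with 4.4 and 5.9 CPM in the libraries labelled ES cells. It fell in Dlx2 EBs, from 8.85 and 9.82 CPM to 4.74 and 5.09 CPM (-0.93 ± 0.15), but was higher in Msx1-positive cells at both days (1.47 ± 0.10 and 2.45 ± 0.10). Adamts17 was at 18.3 and 16.5 against 3.24 and 2.5 CPM at day 16, at 4.73 and 6.48 against 2.24 and 2.94 CPM at day 8 and at 1.6 and 1.59 CPM in the libraries labelled ES cells. It rose in Dlx2 EBs, where it was at 7.01 and 7.12 CPM beside 3.77 and 3.8 CPM with GFP (0.90 ± 0.16), and was higher in Msx1-positive cells by 1.13 ± 0.19 then 2.60 ± 0.19.

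Adamts16, Adamts18 and Adamts19 did not reach 10 CPM in any group. Adamts18 was at 1.60 ± 0.212 CPM in Dlx2 and 0.203 ± 0.23 CPM in GFP EBs (2.96 ± 0.52) and at 2.71 ± 0.321 CPM in Msx1-positive cells of day 16 beside 0.393 ± 0.139 CPM in Msx1-negative cells (2.78 ± 0.42). Adamts19 was at 5.14 ± 0.844 CPM in Dlx2 and 1.90 ± 0.579 CPM in GFP EBs (1.44 ± 0.22), and its small excess in Msx1-positive cells of day 16 (0.51 ± 0.19, edgeR adjusted p = 0.0334) did not pass in DESeq2 (0.50, adjusted p = 0.0501), with no filter on low counts (0.52, adjusted p = 0.0521) or without any 1 of the 4 day 16 libraries (adjusted p from 0.0692 to 0.127). Adamts16 reached 1.00 ± 0.00478 CPM in Msx1-positive cells of day 16, and its excess over Msx1-negative cells (1.72 ± 0.61, adjusted p = 0.0233) was lost without either Msx1-positive library (adjusted p = 0.0736 and 0.0734) or the second Msx1-negative library (1.40, adjusted p = 0.127). At day 8 its excess was lost without the second Msx1-positive (2.29, adjusted p = 0.0571) or the first Msx1-negative library (1.52, adjusted p = 0.0973). Adamts13, which trims von Willebrand factor, had at most 18 counts in any sorted group and was not tested.

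ADAMTSL proteins bind fibrillin and other matrix parts without cutting them. Adamtsl1 was at 36.3 and 27.3 CPM in Msx1-positive and 2.86 and 2.5 CPM in Msx1-negative cells of day 16, at 5.15 and 6.05 against 1.05 and 1.57 CPM at day 8 and at 4.36 and 3.33 CPM in the libraries labelled ES cells. It was at 4.14 and 4.08 CPM in GFP and 2.36 and 2 CPM in Dlx2 EBs (-0.91 ± 0.21, adjusted p = 0.000649), whereas Msx1-positive cells were higher by 2.11 ± 0.20 then 3.56 ± 0.18. Adamtsl3 was at 7.23 ± 0.0845 CPM in Msx1-positive cells of day 16 and at most 1.58 ± 0.181 CPM in any other sorted group. Adamtsl5 was at 5.27 ± 0.879 against 1.33 ± 0.0348 CPM at day 16 (1.98 ± 0.28). Adamtsl2 did not pass 0.515 ± 0.0871 CPM in any group, the value of Msx1-positive cells of day 16, where it was higher by 2.63 ± 0.69 (adjusted p = 0.00409). Adamtsl4 lay between 4.85 ± 0.793 and 7.32 ± 0.0586 CPM in all 7 groups, and its log2 difference between fractions was -0.21 at both days (adjusted p = 0.303 and 0.277).

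The TIMPs inhibit MMPs, and Timp3 also inhibits several ADAMTS enzymes and stays bound to the matrix. Timp2 (chromosome 11, 118301069 to 118355740) was at 577 and 593 CPM in Msx1-positive and 54.4 and 56.8 CPM in Msx1-negative cells of day 16, at 124 and 130 against 7.23 and 6.78 CPM at day 8, and at 5.57 and 6.65 CPM in the libraries labelled ES cells. In EBs it lay between 13.6 and 16.7 CPM, and did not pass the test. The fractions differed by 4.18 ± 0.070 at day 8 and 3.39 ± 0.062 at day 16, and the drop of 0.78 ± 0.088 passed the test (adjusted p = 1.08e-05). Over the same days the differences of Mmp2 and Mmp14, its partners in the activation complex, grew by 1.30 ± 0.088 and 0.44 ± 0.080.

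Timp3 was at 181 and 183 CPM in Msx1-positive and 32 and 33.3 CPM in Msx1-negative cells of day 16, at 46.3 and 43.7 against 6.72 and 7.1 CPM at day 8, at 4.78 and 4.27 CPM in the libraries labelled ES cells and between 4.77 and 5.62 CPM in EBs. It was higher in Msx1-positive cells by 2.70 ± 0.071 then 2.48 ± 0.064, and an exon of it overlaps Syn3. Timp1 (chromosome X, 20870166 to 20874735) was at 73.2 and 80.8 against 14.2 and 13.3 CPM at day 16, at 25.7 and 22.3 against 11 and 10.8 CPM at day 8, and at 18.7 and 16.4 CPM in the libraries labelled ES cells. It fell in Dlx2 EBs, from 15.7 and 15.9 CPM to 9.64 and 7.84 CPM (-0.84 ± 0.12, adjusted p = 1.93e-06), and was higher in Msx1-positive cells by 1.13 ± 0.091 then 2.49 ± 0.090. Timp4, below 1 CPM in every group, rose in Dlx2 EBs (1.91 ± 0.51, adjusted p = 0.0021), a call that was lost without the first Dlx2 library (1.82, adjusted p = 0.0631), and an exon of it overlaps Syn2. It is named here after its values were seen.

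Several genes ran one way at day 2 and the other way between fractions. Called at both day 2 and day 8 were 20 genes, of which 11 were higher in Dlx2 EBs and in Msx1-positive cells, 3 were lower in both, and 6 were lower in Dlx2 EBs but higher in Msx1-positive cells. Those 6 were Mmp2, Mmp9, Mmp14, Timp1, Adamts6 and Adamtsl1. The direction was shared by 70% of the 20, beside 85.9% of the 8635 genes of the whole table called in both. For day 16 it was shared by 52.6% of 19, beside 74.1% of 8948, with Adamts14 and Mmp11 joining the 6 and Adamts9 higher in Dlx2 EBs but lower in Msx1-positive cells. No test of these shares was made, and the day 2 and later comparisons differ in their controls as well as in time.

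A list of 77 further genes of matrix turnover, covering activators and other inhibitors, the plasminogen system, ADAM sheddases, procollagen C-proteinases, cathepsins, serine proteases and substrates, was set beside these genes. Of 67 tested at day 2, 35 rose and 22 fell, beside 34.1% and 33% of all genes. The largest changes were those of the substrate genes Col1a2 (from 1.23 ± 0.712 to 1260 ± 20.5 CPM, log2 9.99 ± 0.11) and Fbn1 (3.81 ± 0.11) and the sheddase Adam12 (4.32 ± 0.21). Of 73 tested in sorted cells, 51 were higher in Msx1-positive cells and 11 lower at day 8 (30.4% and 24.3% of all genes), and 45 and 18 at day 16 (31.1% and 31%). Ambn, which encodes an enamel matrix protein and is cut by Mmp20, was higher in Msx1-positive cells by 8.70 ± 0.33 at day 8 and 7.15 ± 0.28 at day 16 while Mmp20 itself had 6 and 2 counts in the groups of day 16. Col3a1 was higher by 6.57 ± 0.096 at day 8 and Adam33 by 6.15 ± 0.31 at day 16. The others among the 3 largest changes were Serpinb2 (0.0185 against 2.25 CPM at day 8) and Enam (no count against 0.684 CPM at day 16), which had too few counts in Msx1-negative cells for a fitted change.

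The difference between fractions moved up for 17 and down for 27 of those genes from day 8 to day 16 (10.3% and 18.3% of all genes), most for Spock1 (-5.18 ± 0.12) and Ctsh (-4.47 ± 0.15) and upward for Adam33 (3.89 ± 0.43). Over time 43 rose and 12 fell in Msx1-positive cells (21.1% and 24.8% of all genes), with Thbs2 (5.35 ± 0.094), Col1a1 (4.43 ± 0.16) and Plg at the top. Plg, the precursor of plasmin, went from 2 counts to 0.349 ± 0.0804 CPM, too few for a fitted change. In Msx1-negative cells 47 rose and 5 fell (19.7% and 17.8%), with Col3a1 (5.66 ± 0.094), Col1a1 (5.63 ± 0.18) and Col4a1 (5.17 ± 0.080). Col4a1, a basement membrane collagen, was at 6610 ± 104 CPM in Msx1-negative cells of day 16, the same group in which Adamts9 was highest. Against the libraries labelled ES cells, 59 and 57 were higher in Msx1-positive cells of days 8 and 16 and 7 and 12 lower. Over all genes 34.6% and 37.3% were higher and 26.9% and 33.7% lower. Col1a2 was higher by 11.51 ± 0.12 and 13.57 ± 0.12 and Col3a1 by 11.40 ± 0.21 and 14.84 ± 0.21. Col3a1 had only 8 counts in the libraries labelled ES cells (0.0772 ± 0.109 CPM), so the size of its changes against them is uncertain. For Msx1-negative cells 43 and 52 were higher and 6 and 8 lower, beside 19% and 28.5% and 14.5% and 24.5% of all genes. Col1a2 was higher there by 6.19 ± 0.13 and 8.28 ± 0.12, and Col3a1 at day 16 by 10.49 ± 0.22. The others among the 3 largest changes had at most 2 counts in the libraries labelled ES cells and are given as levels. Ambn was at 15.2 ± 1.35 CPM in Msx1-positive cells of day 8 and Fap, a membrane-bound serine protease, at 14.5 ± 0.998 CPM in those of day 16. In Msx1-negative cells Plg was at 0.118 ± 0.0623 CPM at day 8, and Adam12 at 0.865 ± 0.335 CPM at day 8 and 7.44 ± 0.358 CPM at day 16.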

How the data were processed

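Both tables deposited by the authors hold whole-number counts for each symbol, with no normalization. Per the submitters' processing notes, GRCm38 was the build and the tools included HISAT2 2.1.0, fastp 0.20.0 and DESeq2 1.18.1. Which program counted the reads, and on which annotation, is not given in the sources used here. Libraries came from an unstranded kit, so overlapping genes are not separated by strand. The day 2 columns name the lines without doxycycline and were read as the induced EBs that the study design compares, and 4 samples of uninduced groups were not analysed here. Each table was tested on its own (R 4.3.3, edgeR 4.0.16, limma 3.58.1): filterByExpr, TMM, robust glmQLFit and two-sided glmQLFTest, with Benjamini-Hochberg adjustment over all genes tested. The day 2 fit held 4 libraries, the sorted fit 8 and the fit with the libraries labelled ES cells 10. Each SE was taken back from the F statistic, as the size of the log2 change over the root of F. A group with 0 counts was set to a floor of 3 counts over the group, giving a lower bound, and 1 to 3 counts gave a ratio with its 95% exact interval. Floors and intervals cover counting error only. Exon lengths came from GENCODE on GRCm38, and promoters from RefSeq. The test was checked on simulated counts. For the fractions of day 8, 6.16% of its calls were false. Of simulated log2 changes of size 1 and 2, it recovered 66.7% and 78.5%. For day 2 these values were 3.76%, 85.6% and 97%. The alternatives were DESeq2 1.42.0, other scalings and filters, a replicate block and leaving out each library.

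The genes, lists and tests were chosen with earlier results of these data known. Genes with a mean of at least 10 CPM in a group and a call were given library by library, those of at least 1 CPM by group means, and the rest by counts and range; of the wider list, the 3 largest called changes per comparison were named. Replicate numbers did not pair the sorted libraries (correlations of deviations from -0.05 to 0.12).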

Additional observations from a re-analysis of the deposited data

Results flagged for a closer look

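For 21 genes the difference between Msx1-positive and Msx1-negative cells changed from day 8 to day 16 by the test of the difference itself (edgeR's quasi-likelihood interaction, adjusted over all genes). Values are the log2 difference at day 16 minus that at day 8. It grew toward Msx1-positive cells for Adamtsl3 (2.16), Adamts14 (1.91), Mmp19 (1.61), Adamts17 (1.47), Adamtsl1 (1.46), Timp1 (1.35), Adamts2 (1.34), Mmp2 (1.3), Adamts6 (0.99), Mmp23 (0.96), Adamts10 (0.7), Mmp14 (0.44) and Mmp11 (0.42).

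It moved toward Msx1-negative cells for Adamts5 (-2.39), Mmp24 (-2.39), Adamts12 (-1.97), Adamts9 (-1.84), Timp2 (-0.78), Adamts1 (-0.66) and Mmp17 (-0.47). For Mmp12 the fitted value was -8.28, with no count in Msx1-positive cells of day 16, so its size depends on the prior count. The call of Mmp11 was lost with scaling by library size (0.23, edgeR adjusted p = 0.101), and that of Adamts5 in DESeq2 (-2.29, adjusted p = 0.146). That of Adamts1 was lost without the second Msx1-negative library of day 8 (-0.42). Mmp17 was already lower in Msx1-positive cells at day 8, and its negative value means a wider gap. The call of Mmp17 was lost without the first Msx1-negative library of day 8 (-0.4, adjusted p = 0.0823), without the second Msx1-positive (-0.39, adjusted p = 0.0595) or the second Msx1-negative library of day 16 (-0.44, adjusted p = 0.0538), and that of Adamtsl3 without the first Msx1-negative library of day 8 (1.56, adjusted p = 0.0577).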

How the results depend on the processing

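Of 314 calls over the 10 comparisons, 264 held in every alternative that tested the gene, 50 were lost in at least 1 and 0 reversed. A gene that an alternative filtered out or left without an adjusted p was not counted as lost there. With library size alone the median of all genes moved to 0.2 at day 2, 0.22 at day 8, -0.28 for the difference and -0.15 over time in Msx1-positive cells. Under that scaling the lower genes went from 4 to 2 at day 8, from 2 to 1 over time in Msx1-negative cells and from 6 to 3 in Msx1-negative cells of day 16 against the libraries labelled ES cells. Without a filter on low counts, 2 were lower at day 8. The summed CPM of all the genes with library size alone was 313 in Dlx2 EBs (295 as reported), 265 in GFP EBs (282), 260 in the libraries labelled ES cells (275), 292 in Msx1-negative (301) and 1110 in Msx1-positive cells of day 8 (1030). Leaving out each library gave 2 to 4 lower genes at day 8, 1 to 2 over time in Msx1-negative and 3 to 5 in Msx1-positive cells, and 2 to 6 in Msx1-negative cells of day 16 against the libraries labelled ES cells. The genes called higher over time also became fewer in both fractions, whichever library was left out. Those called higher in Msx1-negative cells of day 16 against the libraries labelled ES cells became fewer with some libraries left out. With the replicate number as a block, 31 genes were higher and 4 lower at day 8, 34 and 5 at day 16, and 13 and 8 for the difference. The block ended the calls of Adamtsl2 (1.6, adjusted p = 0.0618) and Mmp23 (0.48, adjusted p = 0.0548) over time, in Msx1-positive and Msx1-negative cells respectively, and of Mmp3 in Msx1-positive cells of day 8 against the libraries labelled ES cells (adjusted p = 0.0588). At day 2 no paired analysis was possible because the columns are known only by group, so the block planned there was not run. A group of 2 libraries limits the precision of every value.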

Other observations

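Further genes of the wider list, such as Bmp1 and Plau, were lower in Dlx2 EBs and higher in Msx1-positive cells. Those described are named here after their values were seen. Bmp1, a procollagen C-proteinase, was lower in Dlx2 than in GFP EBs (log2 -1.11 ± 0.071, edgeR adjusted p = 4.22e-12) and higher in Msx1-positive than in Msx1-negative cells of day 8 (4.02 ± 0.070). Plau, which activates plasminogen, was lower in Dlx2 EBs (-2.32 ± 0.15). Plau was higher in Msx1-positive cells of day 16 by 3.13 ± 0.13. Pcsk5, a proprotein convertase, was higher in Dlx2 EBs (3.79 ± 0.18) and in Msx1-positive cells at both days (4.20 ± 0.11 and 3.27 ± 0.093). The cathepsin gene Ctsh was higher in Msx1-positive cells of day 8 (2.39 ± 0.11) and lower in those of day 16 (-2.09 ± 0.095), as Adamts9 was.

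The genes of type I collagen, a substrate of Mmp13 and Mmp14, were uneven at day 2. Col1a2 was at 1260 ± 20.5 CPM in Dlx2 EBs (SD, n = 2) and 1.23 ± 0.712 CPM in GFP EBs, while Col1a1 was at 7.77 ± 0.219 and 3.36 ± 0.0686 CPM. In Msx1-positive cells of day 16 Col1a1 was at 7360 ± 555 CPM and Col1a2 at 4640 ± 293 CPM. This contrast was noticed in the data, and its cause was not tested.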
